A study of Mus musculus with 12 samples.

Results

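Salivary tumors that carried the p53 R172H mutation on both alleles were compared with salivary tumors that had no p53. The comparison rested on 8 of the 12 arrays of the series. Of these, 4 came from tumors labeled MMTV-ras/p53R172H/R172H (MT1 to MT4) and 4 from tumors labeled MMTV-ras/p53-/- (KO1 to KO4). Arrays were placed in groups by these labels, and the comparison was chosen with earlier results of these data known. All probe sets other than the control probe sets entered, 22626 of 22690. Adult, untreated mice of both groups shared the MMTV-ras transgene, a Ras oncogene driven by a mammary tumor virus promoter that is active in salivary and mammary epithelium, so the null tumors are Ras tumors without p53 and not normal tissue. The null mice came from a long-standing colony of BALB/c and C57BL/6 descent, and the R172H allele entered from C57BL/6 mice and was kept by interbreeding on a mixed background of the same strains. The study worked mainly with male mice and used a few females. The sources used here do not give the sex or the exact age of the mouse behind each array. Among males, the study found a later onset of salivary tumors in R172H than in null mice. Age may therefore differ between the groups, and its part was not tested. The 4 tumors with wild-type p53 (MMTV-ras/p53+/+, WT1 to WT4) entered the fit and are given as a reference level. RNA came from frozen sections of tumor pieces, which the study chose by histology for mostly homogeneous tumor without extensive necrosis. In RNA from such sections, fewer cells of a type and less RNA per cell cannot be told apart.

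The p53 protein is a transcription factor that halts the cell cycle or starts apoptosis after DNA damage, through targets such as Cdkn1a, Mdm2 and Ccng1. The R172H substitution alters the shape of its DNA-binding domain, so that the protein is made but loses most binding to these targets. Mutants of this class are studied for activities that a tumor without any p53 would lack, and a comparison with the null tumors asks for such differences.

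The values are log2 expression levels, in which a difference of log2 1 is a doubling. An array reads a gene through 1 or more probe sets, and each of the 22626 was compared between genotypes with limma, with Benjamini-Hochberg adjustment over all of them. Differences are the mean of the 4 MT tumors minus the mean of the 4 KO tumors, with the standard error (SE) of the fit. Because the labels do not say that tumors of a group came from separate mice, the p-values measure only the spread between these tumors. Some facts of the arrays touch the results. Poly-A controls, which are bacterial transcripts added during labeling, averaged 3.98 to 4.23 in 9 tumors, MT4 among them, but 10.38 to 10.56 in the remaining MT tumors (MT1 to MT3). Ribosomal 18S RNA read 6.41 to 6.59 in MT1 to MT3, 7.66 in MT4 and 7.36 to 8.03 in the KO tumors. The level of the actin 3' probe set minus its 5' probe set, which rises as RNA degrades, was 0.36 to 1.05 in KO tumors, highest in KO4, and 0.17 to 0.40 in MT tumors. No source used here names a labeling batch. For this reason MT4 is given apart for many of the genes. Where a gene is said to be without overlap, MT4 lay on the same side of the KO tumors as MT1 to MT3, even if its value is not printed. A fit with the poly-A controls as a block, in which MT4 alone stands against the KO tumors, is given where it changes a call. The epithelial genes Krt8, Krt18, Epcam and Cdh1 were strongly expressed in every MT and KO tumor, with levels of 10.79 or more.

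Trp53, the gene that differs by design, was the only gene that passed the test. Its first probe set read 5.85, 6.33, 6.24 and 6.36 in KO1 to KO4 and 8.80, 9.04, 8.82 and 7.88 in MT1 to MT4. All 4 MT tumors lay above all 4 KO tumors, and MT4 was the lowest of the MT tumors. The mean was 2.44 higher on the log2 scale in MT tumors (SE 0.24, adjusted p = 0.00675 by limma), a 5.42-fold difference. The second probe set read 6.37, 6.70, 6.89 and 6.72 in the KO tumors and 9.16, 9.29, 9.13 and 8.18 in the MT tumors, again without overlap and with MT4 lowest. Its difference was 2.27 (SE 0.23, adjusted p = 0.00675 by limma). WT tumors averaged 7.83 and 8.33 on these probe sets, between the KO and MT means. With the poly-A block the differences were 1.69 and 1.51, and neither passed (adjusted p = 0.0783 and 0.0674 by limma). This block leaves MT4 as a single array against the KO tumors, with the spread taken from the other tumors. Trp53 also missed the threshold, with the same differences, in a fit to the 8 compared tumors alone (adjusted p = 0.168 by limma) and with a block for the replicate number (0.0768). Which part of the transcript each probe set reads, relative to the part removed in the null allele, is not given in the sources used here.

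Both Trp53 probe sets were higher and made up 0.00884% of those tested, and none passed as lower. Without adjustment, 2168 probe sets had a p under 0.05 by limma, 1133 higher and 1035 lower in MT tumors. At an adjusted p under 0.1 there were 5, the added ones being a probe set of Ptp4a2, which was higher, and ones of Bcap31 and Flcn, which were lower. SAM, a permutation test used by the study, was computed anew here. It called 2 at a false discovery rate of 5% and 46 at 10%, of which 23 were lower. The methods' t-test called none at either rate. On values processed by RMA, the study's own SAM counted more at 5% and fewer at 10%, and its t-test also called none. In a description that needs no test, the MT values lay all above the KO values in 651 probe sets (2.88%) and all below in 446 (1.97%). Of these, 53 and 55 differed by 2-fold or more.

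**Figure D1:**
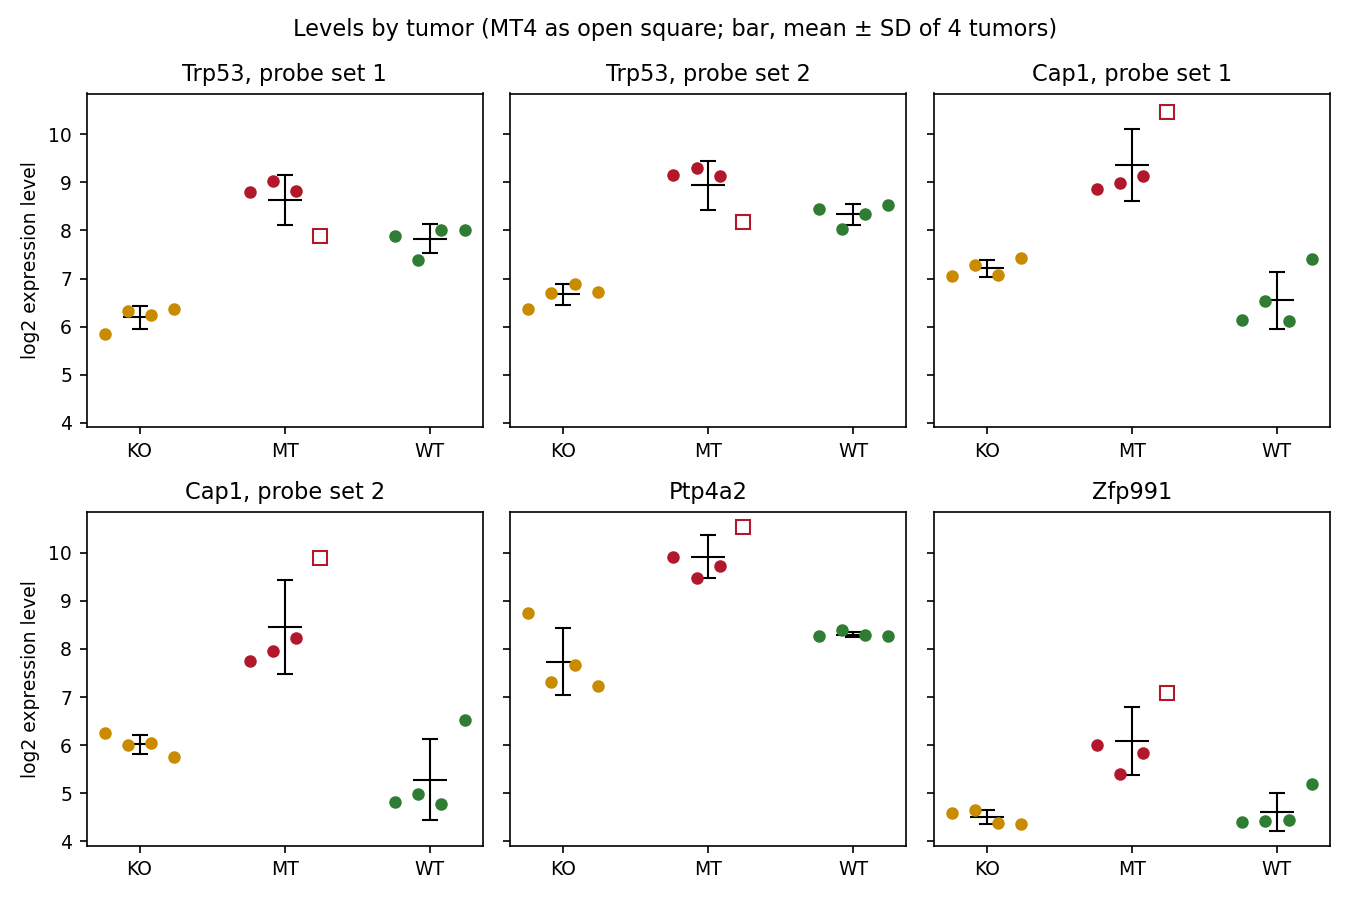
Log2 expression level (vertical axis) of Trp53, Cap1, Ptp4a2 and Zfp991 in each KO, MT and WT tumor, with Trp53 and Cap1 shown on 2 probe sets each. Points are tumors, the open square is MT4 and bars are the mean ± SD of 4 tumors, and MT4 is the lowest MT tumor for Trp53 and the highest for Cap1, Ptp4a2 and Zfp991.

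Cap1, Ptp4a2 and Zfp991 were described next, as genes that the study had set apart on these same samples as higher in MT tumors than in both other genotypes, so that their direction is not independent evidence. Cap1 encodes a protein that binds actin monomers and speeds the turnover of actin filaments. Its first probe set read 7.06, 7.28, 7.08 and 7.42 in KO1 to KO4 and 8.85, 8.98, 9.14 and 10.47 in MT1 to MT4. The groups did not overlap, and MT4 stood above the other MT tumors. The difference was 2.15 (SE 0.36, adjusted p = 0.109 by limma), 4.438-fold. The second probe set differed by 2.44 (SE 0.48, adjusted p = 0.151 by limma), also without overlap and with MT4 highest at 9.89. Cap1 passed where MT4 was left out (adjusted p = 0.0221 and 0.0403 by limma). With the poly-A block, where MT4 is the single MT array and the spread comes from the other tumors, the differences were 3.26 and 3.87 (adjusted p = 0.0179 and 0.0439 by limma). WT tumors averaged 6.55 and 5.28, below the KO tumors on both probe sets. The study also measured Cap1 by quantitative PCR and reported results similar to the arrays. That RNA was the array RNA and a later preparation from the same tumors, so it adds no new tumors.

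Ptp4a2 encodes PRL-2, a small phosphatase anchored to membranes. One of its 4 probe sets read 8.74, 7.32, 7.66 and 7.23 in KO1 to KO4 and 9.91, 9.48, 9.72 and 10.53 in MT1 to MT4. The groups did not overlap, with KO1 the highest KO tumor and MT4 the highest MT tumor. The difference was 2.18 (SE 0.31, adjusted p = 0.0818 by limma), and it passed without KO1 (adjusted p = 0.00647 by limma) and without MT4 (0.0221). The other 3 probe sets of Ptp4a2 overlapped between groups and differed by -0.40, -0.36 and 0.17. Zfp991 encodes a zinc finger protein. It read 4.60, 4.66, 4.39 and 4.36 in the KO tumors and 5.997, 5.40, 5.84 and 7.08 in the MT tumors, a difference of 1.58 (SE 0.31, adjusted p = 0.151 by limma), with MT4 again highest. Its other probe set overlapped between groups, with a difference of 0.34 and MT4 highest at 5.71. With the poly-A block, which likewise rests on MT4 alone, Zfp991 differed by 2.58 (adjusted p = 0.0179 by limma). Cap1 was the only one of these 3 genes whose every probe set was without overlap. All 3 genes lie on chromosome 4.

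A larger group of 21 probe sets, chosen by the study on these samples for levels above both other genotypes, separated MT from KO tumors less. Its median difference was 0.40, with 0.49 for MT1 to MT3 and 0.13 for MT4, and 5 of the 21 were above without overlap. These were Add1, Col16a1, Csnk2a1, Ptprs and Zfp93. Col16a1, a collagen, read 8.23, 8.27, 8.24 and 7.92 in KO1 to KO4 and 8.73, 9.40, 9.28 and 8.52 in MT1 to MT4. KO4 was the lowest tumor and MT4 the lowest MT tumor, and the difference was 0.82 (SE 0.21, adjusted p = 0.267 by limma). Add1, an adducin of the membrane skeleton, differed by 0.31 (SE 0.09, adjusted p = 0.31 by limma). Its other probe sets differed by 0.31 without overlap and by 0.37 with overlap. Flot2, a flotillin of membrane microdomains, differed by 0.72 and 0.46 on 2 probe sets with overlap, and MT4 alone differed from the KO mean by 0.02 and 0.03.

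The sequences upstream of Cap1 and Ptp4a2 are shown because both were among the 12 higher genes with the smallest p, and because the CCAAT box is bound by NF-Y, a factor that mutant p53 proteins are known to contact. They are the 250 bases before the RefSeq start of each gene in assembly GRCm38.p6, for Cap1 at chr4:122886077-122886326 on the minus strand and for Ptp4a2 at chr4:129820229-129820478 on the plus strand. Capitals mark CCAAT on either strand, so that ATTGG is the box read on the other strand.
Cap1: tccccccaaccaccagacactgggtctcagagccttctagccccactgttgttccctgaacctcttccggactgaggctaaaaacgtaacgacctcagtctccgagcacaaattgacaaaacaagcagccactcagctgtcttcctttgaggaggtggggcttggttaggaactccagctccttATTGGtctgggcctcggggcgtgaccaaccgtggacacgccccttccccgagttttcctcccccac
Ptp4a2: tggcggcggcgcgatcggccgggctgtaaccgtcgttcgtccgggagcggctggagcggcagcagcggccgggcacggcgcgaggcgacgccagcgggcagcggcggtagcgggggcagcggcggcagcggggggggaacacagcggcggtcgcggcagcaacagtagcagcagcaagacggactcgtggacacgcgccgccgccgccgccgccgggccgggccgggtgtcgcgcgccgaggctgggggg
The Cap1 sequence held 1 match, 66 bases before the start, and the Ptp4a2 sequence held none. Of all 32851 promoters of this length 33.8% held the box, as did 39.9% of the 9891 measured genes with a promoter. Of genes with a probe set all above, 38.4% held it, and of those with one all below, 43.5%. The match is a description of the letters.

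The 12 genes with the smallest p among those without overlap in each direction had differences of 0.53 to 2.44 in size when higher and 0.78 to 1.69 when lower, and of these 24 only Trp53 passed. Of the 12 higher genes, 5 lie on chromosome 8, which holds 5.02% of the placed probe sets. Psap, the precursor of the lysosomal saposins, read 10.60, 10.72, 10.72 and 10.08 in KO1 to KO4 and 11.70, 12.06, 11.88 and 11.18 in MT1 to MT4. KO4 and MT4 were the lowest of their groups, which did not overlap. KO4, the tumor with the highest actin 3' minus 5' value, was also the lowest KO tumor for Ubtf and Col16a1, and the part of RNA quality was not tested. The difference was 1.17 (SE 0.19, adjusted p = 0.109 by limma), and its other probe set, which overlapped, differed by 0.49. Gsr, glutathione reductase, read 8.18, 7.94, 8.04 and 8.49 in the KO tumors and 8.92, 9.15, 8.91 and 9.09 in the MT tumors, a difference of 0.86 (SE 0.14, adjusted p = 0.109 by limma), and its second probe set differed by 0.50 with no overlap. MT4 lay among the other MT tumors on both.

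Kif3b, a motor subunit of kinesin-2, was measured by 4 probe sets, and on each of them every MT tumor lay above every KO tumor, with differences of 0.80, 0.73, 0.40 and 0.31. On the first, the KO tumors read 6.33, 6.39, 6.46 and 6.05 and the MT tumors 7.19, 7.04, 7.27 and 6.95 (SE 0.14, adjusted p = 0.144 by limma). Its partner subunit Kif3a lay the other way, with all MT tumors below all KO tumors on both probe sets and a mean difference of -0.60. Dhps, which makes the hypusine of a translation factor, differed by 0.53 and 0.46 on 2 probe sets without overlap. Pdf, a mitochondrial peptide deformylase with 1 probe set, differed by 0.74 (SE 0.12, adjusted p = 0.109 by limma). Ap1g1, an adaptor subunit of clathrin coats, differed by 0.75 on the named probe set and by 0.35, 0.13 and 0.09 on the others, of which 1 did not overlap. Rnf4, a ubiquitin ligase for SUMO chains, and Ubtf, a factor of RNA polymerase I, differed by 1.16 and 0.76 on 1 probe set each, while their other probe sets overlapped and differed by -0.09 and 0.09.

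Of the 12 lower genes, 6 lie on chromosome 6, which holds 5.86% of the placed probe sets. Without MT4 the share of its probe sets below, 5.62%, was under that of all probe sets, 6.24%. Bcap31, a chaperone of the endoplasmic reticulum membrane encoded on the X chromosome, read 10.77, 10.10, 10.13 and 10.48 in KO1 to KO4 and 9.26, 9.23, 9.06 and 9.43 in MT1 to MT4. The groups did not overlap and MT4 lay with the other MT tumors. The difference was -1.12 (SE 0.15, adjusted p = 0.0818 by limma), 2.176-fold higher in KO tumors, and the second probe set differed by -0.53, also without overlap. Flcn, the tumor suppressor folliculin, read 9.37, 9.10, 9.24 and 9.12 in the KO tumors and 7.84, 7.82, 7.93 and 8.51 in the MT tumors. MT4 was the MT tumor nearest to the KO tumors but did not overlap them. The difference was -1.18 (SE 0.16, adjusted p = 0.0818 by limma), and the other 2 probe sets differed by -0.50 and -0.18 without overlap.

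Ncam1, a neural cell adhesion molecule, read 7.51, 7.58, 7.04 and 6.58 in KO1 to KO4 and 5.05, 5.47, 5.62 and 5.81 in MT1 to MT4, a difference of -1.69 (SE 0.26, adjusted p = 0.109 by limma). WT tumors averaged 5.21, near the MT tumors. Of its 5 other probe sets 1 was without overlap, at -0.43. Wasl, which encodes N-WASP, an activator of actin branching, read 9.99, 9.88, 10.28 and 10.33 in the KO tumors and 8.58, 8.75, 8.82 and 9.36 in the MT tumors, with no overlap and MT4 the highest MT tumor. The difference was -1.24 (SE 0.20, adjusted p = 0.109 by limma), and its other 3 probe sets overlapped at -0.42, -0.36 and -0.08. Rad21, a cohesin subunit, differed by -0.93 and -1.12 on 2 probe sets without overlap and by 0.19 on the third. Luc7l2, a splicing factor, was negative on all 5 probe sets, from -0.30 to -1.35, and 2 of them did not overlap. The remaining lower genes, Kcmf1, Sem1, Aak1, Pitpnc1, Tsks and the noncoding Gt(ROSA)26Sor, lay below KO on the named probe set, and the other probe sets of Kcmf1, Sem1 and Aak1 overlapped. WT means lay on the MT side of the KO mean for 11 of the 12 higher genes and for all 12 lower genes, but this comparison shares the KO tumors.

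**Figure D2:**
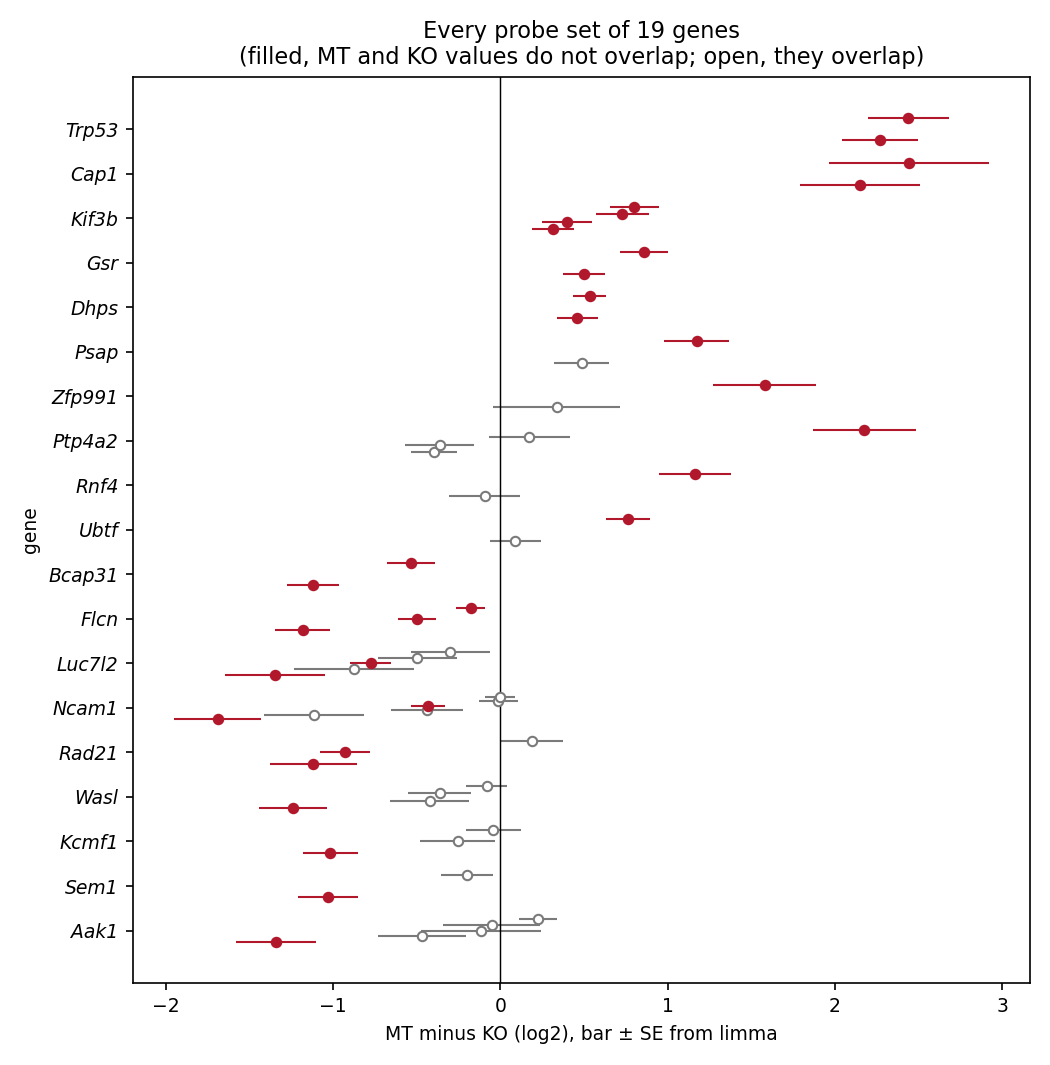
Difference of MT minus KO tumors (horizontal axis, log2) for every probe set of 19 genes, with bars of ± SE from limma. Filled points mark probe sets whose 4 MT and 4 KO values do not overlap, and Trp53, Cap1, Kif3b, Gsr, Dhps, Bcap31 and Flcn have filled points only.

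Across the array, genes with 2 or more probe sets rarely had all of them without overlap. Of 4958 such genes, 8 had every probe set above (Trp53, Cap1, Sntb1, Gsr, Rpa2, Kif3b, Dhps and Aprt) and 14 every probe set below. The largest of the lower was Apoa4, an apolipoprotein, at a mean of -3.23. Its first probe set read 11.91, 8.44, 8.73 and 8.70 in KO1 to KO4 and 5.74, 6.12, 7.19 and 6.37 in MT1 to MT4. KO1 stood far above the other KO tumors, yet these too lay above every MT tumor. The difference was -3.09 (SE 0.65, adjusted p = 0.179 by limma), and without KO1 it was -2.27 and passed (adjusted p = 0.0436 by limma). The second probe set differed by -3.38 (SE 0.71, adjusted p = 0.181 by limma) and by -2.53 without KO1, where it did not pass (adjusted p = 0.145 by limma). Luc7l3, Bcap31, Gbp7, Golt1b, Peli1 and Cnbp followed at means of -0.84, -0.83, -0.81, -0.77, -0.69 and -0.68. For Gbp7, an interferon-induced GTPase, KO2 was the highest tumor at 9.16.

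The other probe sets of the same genes followed only in part. Of the 651 probe sets above, 406 had others for the same gene, which made 839 pairs of a member and another probe set. A probe set counts once for each member it is paired with, so 2 members of the same gene make 2 pairs. In 92 of the pairs (11%) the other was also above without overlap, while 2.88% of all probe sets were, each counted once. In 68.3% of the pairs the other had a positive difference, against 53.4% of all probe sets. The median difference was 0.52 for the 406 with others and 0.10 for the others over these pairs. Of the 446 below, 308 had others, in 708 pairs counted the same way. The other was also below without overlap in 112 pairs (15.8%), against 1.97% of all probe sets. It was negative in 69.4% of the pairs, against 46.6%. The median difference was -0.56 for the 308 with others and -0.14 for the others over these pairs. Without MT4, a setting chosen after seeing the data, the shares of pairs whose other probe set was without overlap were 18.4% above and 22.3% below. Of all probe sets, 7.89% and 6.24% were. Probe sets of a gene share the RNA of the same tumors, so these shares describe agreement within the gene and not new samples.

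Without MT4, 235 probe sets passed by limma (1.04%), 112 higher and 123 lower, while leaving out MT1, MT2 or MT3 in turn gave 2 each. The 235 were chosen by MT1 to MT3, and the place of MT4 among them is a description. In 77 of them MT4 lay on the same side outside the KO range, in 116 within the KO range and in 42 beyond it on the opposite side. On 1 of its 2 probe sets Polr2a, the large subunit of RNA polymerase II, read 7.98, 8.69, 8.21 and 8.50 in KO1 to KO4. There it read 10.09, 9.98, 10.14 and 7.87 in MT1 to MT4, so that MT1 to MT3 were above the KO range and MT4 below it. The other probe set is not described here. Sox10, a transcription factor of neural crest and salivary epithelium, read 9.83, 9.50, 9.41 and 7.75 in the MT tumors against 7.78 to 8.42 in the KO tumors. Ddx5, an RNA helicase that binds p53, read 10.72, 10.46, 10.37 and 11.96 in the MT tumors and 11.56 to 11.84 in the KO tumors, with MT4 above the range and the others below it. Mcl1, an anti-apoptotic Bcl2 relative, read 8.22, 8.57, 8.34 and 10.21 in the MT tumors and 9.38 to 10.00 in the KO tumors, in the same arrangement. Whether the poly-A controls, the 18S level or the tumor itself has a part in these differences was not tested.

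**Figure D3:**
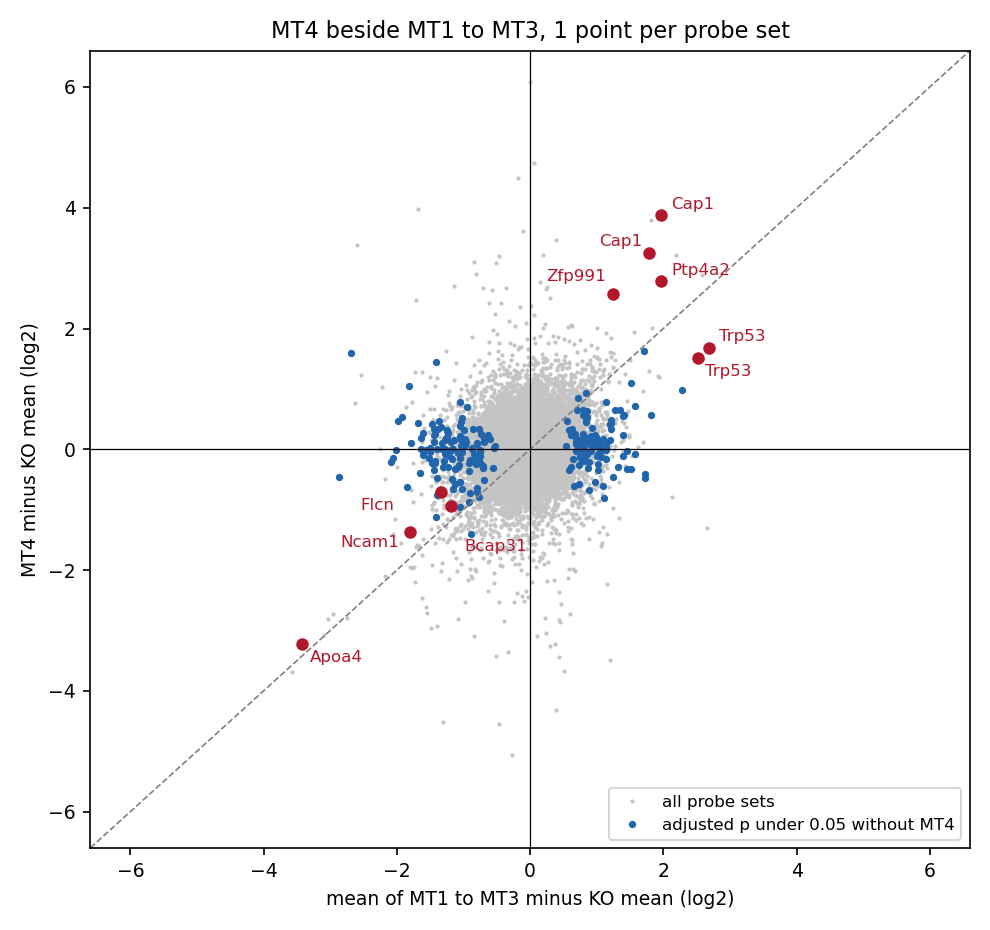
Difference of MT4 from the KO mean (vertical axis, log2) beside the difference of the mean of MT1 to MT3 from the KO mean (horizontal axis, log2), with 1 gray point per probe set, blue points for those that passed without MT4 and labeled red points for genes described in the text. Of the 235 blue probe sets 116 have MT4 within the KO range, while Trp53, Cap1, Ptp4a2, Zfp991, Flcn, Ncam1, Bcap31 and Apoa4 lie on the same side for MT4 and for MT1 to MT3.

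With the poly-A block 13 probe sets passed by limma, all higher, on the single array MT4. For 9 of them MT1 to MT3 overlapped the KO tumors. BC018473, a transcript of unclear function, read 4.13, 4.14 and 4.38 in MT1 to MT3 and 10.30 in MT4, and the KO tumors lay between 4.04 and 4.49. Smoc2, a matrix protein, and Ptger3, a prostaglandin receptor, were also high in MT4 alone, and for Ptger3 the other MT tumors lay below the KO range. Only Cap1 and Zfp991 were both blocked calls and without overlap in all 8 tumors.

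Genes that wild-type p53 activates were read next. Cdkn1a, the CDK inhibitor p21, differed by -0.02 (SE 0.29) and 0.25 (SE 0.32) on its 2 probe sets, and the groups overlapped. KO tumors read 7.01, 6.62, 6.68 and 7.20 and MT tumors 6.43, 7.64, 6.66 and 6.71 on the first, with MT2 alone above the KO range, and WT tumors averaged 8.33. Mdm2, the ubiquitin ligase that degrades p53, differed by 0.28 and 0.08 with overlap. Zmat3, a p53-induced RNA-binding protein, differed by 0.16 with overlap, against a WT mean of 8.01 and KO values of 6.63 to 7.01. Ccng1, cyclin G1, was without overlap on 1 of 3 probe sets, where KO tumors read 7.33, 7.55, 7.88 and 7.03 and MT tumors 7.99, 8.09, 8.07 and 8.42. That probe set differed by 0.69 (SE 0.21, adjusted p = 0.319 by limma), and the others by -0.45 and 0.19 with overlap, while WT tumors averaged 9.22, 10.04 and 9.56 on the 3 probe sets.

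In lists of p53 targets, each gene was read at its brightest probe set, and no gene passed. The median difference was -0.05 over 17 cell cycle arrest targets, 0.04 over 17 apoptosis targets, -0.02 over 14 metabolism and repair targets and -0.13 over 11 feedback regulators, beside 0.02 over all 12399 genes. Without adjustment, 2 of the metabolism and repair targets had a p under 0.05, and both were without overlap and higher. These were Sod2, mitochondrial superoxide dismutase, at 0.54, and Sesn1, a stress-induced sestrin, at 0.29. Over all genes, 2.18% were above and 1.68% below without overlap at the brightest probe set. One feedback regulator, Cdkn2a, the locus of p16Ink4a and p19Arf, was without overlap and lower. It read 7.87, 7.49, 7.66 and 8.04 in KO1 to KO4 and 6.50, 5.48, 7.42 and 6.79 in MT1 to MT4, with MT3 nearest to the KO tumors. The difference was -1.22 (SE 0.33, adjusted p = 0.276 by limma), and WT tumors averaged 5.22, below both.

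Genes of mitosis and the spindle had negative differences in 30 of 33 measured, with a median of -0.37, while 46.7% of all genes were negative. None passed by limma, and 7 were lower at an unadjusted p under 0.05, against 3.92% of all genes. All 4 MT tumors lay below all 4 KO tumors in 6 of the 33 (18.2%), against 1.68% of all genes. The largest was Cenpe, a kinetochore kinesin, which read 6.12, 5.15, 6.19 and 6.34 in the KO tumors and 4.74, 4.66, 4.72 and 4.99 in the MT tumors. The difference was -1.17 (SE 0.23, adjusted p = 0.151 by limma). The others were Ccnb2, a mitotic cyclin, at -0.94, Cenpa, the centromeric histone, at -0.81, Cdc20, an activator of the anaphase complex, at -0.79, Mki67, the Ki-67 antigen, at -0.72, and Kif2c, a microtubule depolymerase, at -0.39. The list's median by tumor, as the tumor's level minus the KO mean, was -0.14, 0.06, 0.19 and -0.13 in KO1 to KO4 and -0.07, -0.68, -0.37 and -0.28 in MT1 to MT4. MT1 lay within the KO range and the other 3 below it, while WT tumors ran from -0.59 to 0.02. Aurka, Foxm1 and Ccnf were the 3 with a positive value. In the study, mitotic figures did not distinguish null from R172H tumors. It saw no gross difference in Ki-67 staining, which varied widely, and no significant difference in growth rate between these groups. Those are measures of cells, protein and tumor size, not of RNA. Of 26 mitosis and spindle genes with a promoter, 76.9% held a CCAAT box, against 39.9% of measured genes. Of genes with a probe set all below, 43.5% held it. The share describes the promoters of the list in any genotype, and whether the box has a part in these levels was not tested. In contrast to this list, 43 genes of DNA replication and nucleotide supply had a median of 0.05, with Rpa2, a subunit of the single-strand binding protein, above at 0.84 and Dck, deoxycytidine kinase, below at -0.80. Each made up 2.33% of the list, near the 2.18% above and 1.68% below of all genes.

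Interferon response genes had the lowest median of the 21 pathway lists, -0.62 over 29 genes, with 27 negative. None passed by limma, and 8 of the 29 were lower at an unadjusted p under 0.05, against 3.92% of all genes. None was without overlap. The list's median was -0.11, 1.11, -1.07 and -0.24 in KO1 to KO4 and -0.85, -0.25, -1.17 and -0.33 in MT1 to MT4, so KO2 stood above all others and KO3 lay near MT3. The median was -0.23 without KO2, -0.39 without MT3 and -0.92 without KO3. Ifit2, an interferon-induced antiviral protein, read 6.96, 7.04, 5.35 and 6.84 in the KO tumors and 4.81, 5.66, 4.86 and 5.66 in the MT tumors, and KO3 was within the MT range. Gbp3, a guanylate-binding protein, read 10.24 in KO2, 6.11 in KO3 and 5.64 to 6.92 in the MT tumors. Apart from the mitosis list, the other pathway lists had medians of -0.13 to 0.18. In the sterol pathway Fdps, farnesyl diphosphate synthase, differed by 0.85 with no overlap. In the actin list Cap1 and Add1, an adducin, were above and Wasl below. Met, a growth factor receptor, and Rab11b, a recycling GTPase, were above in the list of receptor traffic, at 0.68 and 0.27, and Bmf, a pro-apoptotic Bcl2 relative, was above at 0.66. The shares above were 4.55% for sterols, 5.71% for actin, 6.9% for receptor traffic and 3.7% for Bcl2 and caspases. The share below was 2.86% for actin. Over all genes 2.18% were above and 1.68% below, and with 1 or 2 members per list the shares say little about a list. The chemokine and the glutathione lists also held 2 members above each.

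**Figure D4:**
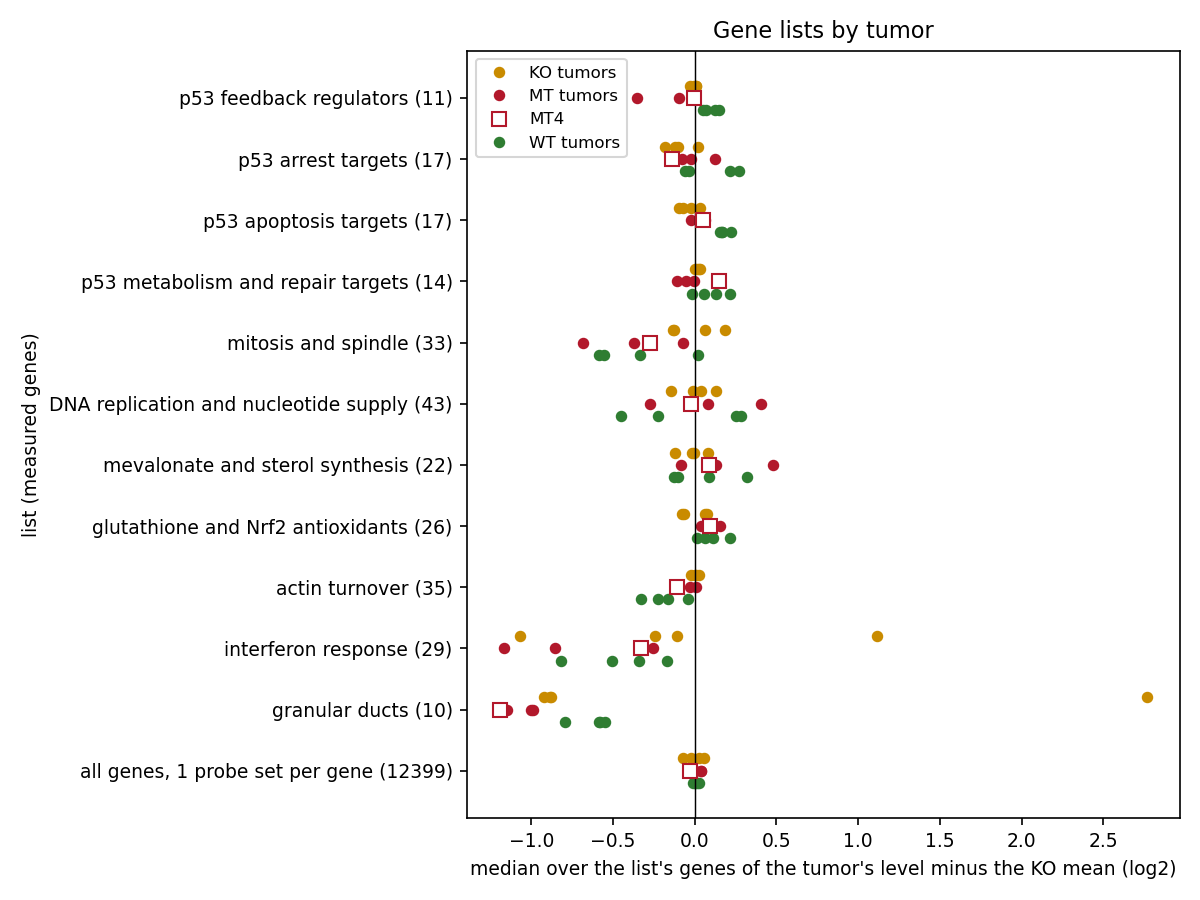
Median over the genes of each list of the tumor's level minus the KO mean (horizontal axis, log2), 1 point per tumor, with the number of measured genes in parentheses and MT4 as an open square. The mitosis and spindle genes are below the KO mean in all MT tumors, from -0.68 to -0.07, while KO2 stands alone in the interferon list at 1.11 and KO3 in the granular duct list at 2.77.

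Markers of other cell types were read from 14 lists with 167 entries, of which 3 were above and 2 below without overlap. These counts lie near the shares of all genes, 2.18% above and 1.68% below. The granular duct list, which holds kallikreins and growth factors of normal submandibular ducts, was lower in MT tumors in all 10 genes, with a median of -1.07. Its mean level was 8.76 in KO3, 4.84 to 5.25 in the other KO tumors and 4.63 to 4.79 in the MT tumors, so this list stood high in a single KO tumor, and without KO3 its median was -0.03. Klk1, a kallikrein, read 7.93, 4.21, 11.60 and 4.19 in KO1 to KO4 and 3.85 to 4.18 in the MT tumors. The other 13 marker lists had medians of -0.09 to 0.17, and Lum, a proteoglycan of fibroblasts, and the T cell genes Cd3d and Cd2 were the members above. Their part in any difference was not tested. Xist was low in all 8 tumors (5.77 to 6.17), and the Y-linked Uty, at 8.94, 6.79, 8.38 and 7.33 in KO1 to KO4, read 7.07, 4.14, 4.74 and 9.10 in MT1 to MT4, lowest in MT2 and MT3.

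The position of the differing genes was described because both alleles were bred through mixed stocks. Among the 20 measured genes nearest to Trp53 on chromosome 11, none was without overlap, and their median difference was 0.09. Polr2a, described above, is the ninth on one side. On the probe set described it differed by 1.18 with overlap, which came from MT4 alone, and passed without MT4 at 1.73 (adjusted p = 0.00272 by limma). Of probe sets on chromosome 8, 52 of 1021 (5.09%) were above, and on chromosome 10, 50 of 923 (5.42%). Probe sets below made up 4.19% on chromosome 6 (50 of 1193) and 4.79% on the X chromosome (32 of 668), while on chromosome 12 there were none of 672. With 1 probe set per gene, the shares were 4.18% above for chromosome 8 and 3.93% for chromosome 10, and 3.31% below for chromosome 6 and 4.98% for the X chromosome. Chromosome 6 as a whole had a median difference of -0.02, with -0.24 in MT4. Without MT4, also chosen after seeing the data, the shares were 13.6% above for chromosome 8 and 12% for chromosome 10, against 7.89% of all, and 5.62% below for chromosome 6 and 12.1% for the X chromosome, against 6.24%, so chromosome 6 no longer stood above the share of all probe sets. In runs of 50 neighboring genes the median was 1 gene above and 1 below. The run with most genes above held 6, on chromosome 8 between Adgra2 and Cfap97, with Gsr, Gtf2e2, Adam24, Mtnr1a, Ufsp2 and Cfap97. The run with most below also held 6, on chromosome 5 between Asl and Lrwd1. Changes of chromosome copy number in these tumors were not measured here, and strain and genotype cannot be told apart.

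**Figure D5:**
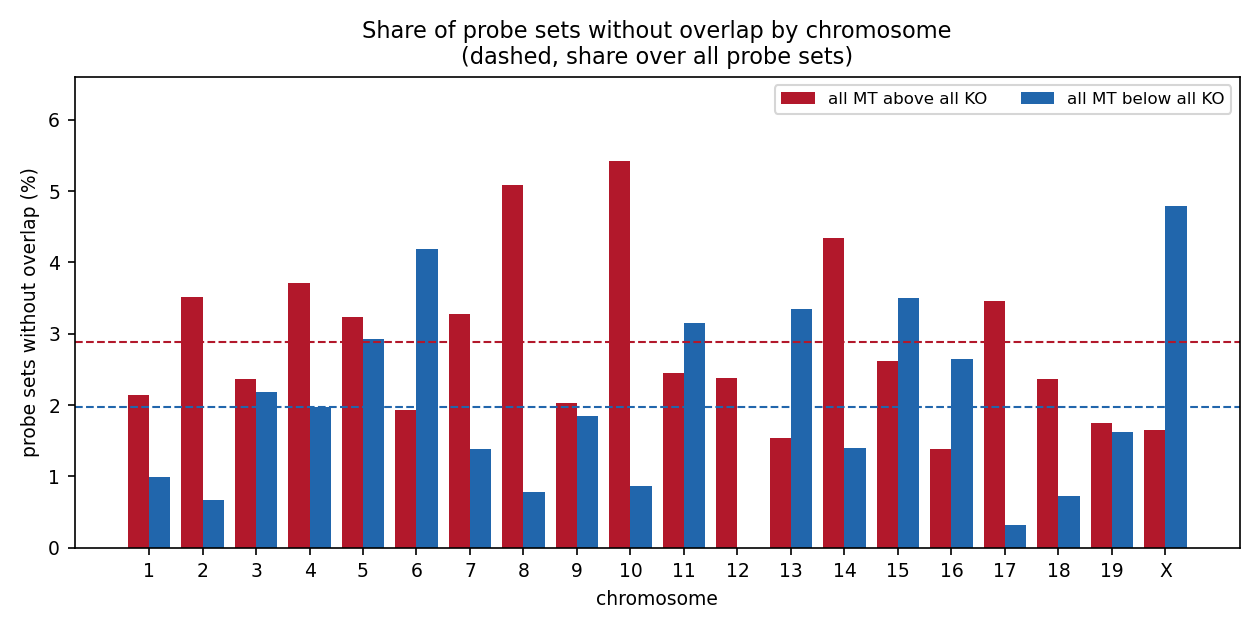
Share of probe sets whose 4 MT values lie all above (red) or all below (blue) the 4 KO values (vertical axis, percent) on each chromosome. Dashed lines mark the shares over all probe sets, 2.88% and 1.97%, and chromosomes 8 and 10 stand highest for red and 6 and X for blue.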

How the data were processed

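RNA from 12 salivary tumors was read on 1 Affymetrix mouse array each. The deposited log2 values were made by the authors in BRB-ArrayTools with RMA (background correction, quantile normalization and median polish), per their methods. The submitters' processing notes name RMA and MAS5 without versions. No depth is counted on arrays, and the number of tumors limits the precision.

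The values were used as deposited, without the 64 control probe sets. Of 22626 probe sets 20380 had 1 gene symbol, 691 several, 9 a name only from the study's gene list and 1546 none. The fit used limma 3.58.1 (R 4.3.3) with a mean for each genotype over the 12 tumors, which leaves 9 residual degrees of freedom, and tested MT minus KO 2-sided with Benjamini-Hochberg adjustment and a threshold of 0.05. The members, the lists and the rules for named genes were chosen with earlier results of these data known. The genes named are Trp53, the 12 per direction with the smallest p among probe sets without overlap, genes with every probe set without overlap, genes of the study's clusters and up to 4 members per list. Sox10, Ddx5, Mcl1, Ccnb2, Kif2c, BC018473, Smoc2 and Ptger3 fall outside this rule and were picked once their values had been seen. Alternatives were other scalings, filters, blocks, array weights, SAM, the methods' t-test and each tumor left out in turn. Steps were tested on simulated data. Promoters, names and gene order came from RefSeq tables of GRCm38.p6, and coordinates were used for promoters only. Intensity files were not analysed here.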

Additional observations from a re-analysis of the deposited data

Results flagged for a closer look

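For 48 probe sets described in the report, the 4 KO and the 4 MT values were each examined for a tumor far from the other 3, 96 tests in all, of which 10 found one. Chance alone gives about 1 in 20 for probe sets not chosen by their values. These probe sets were chosen from the same values, some, such as BC018473, once they had been seen. Apoa4 counts on both its probe sets for the same tumor. The 10 can therefore not be set against that rate. In KO tumors, Ubtf read 6.394 in KO4 and 6.909 to 6.946 in the others, Col16a1 read 7.917 in KO4 and 8.23 to 8.268 in the others, and Ddx5 read 11.558 in KO4 and 11.83 to 11.837 in the others. Ifit2 read 5.353 in KO3 and 6.842 to 7.038 in the others. Apoa4 read 11.912 in KO1 and 8.442 to 8.729 in the others on one probe set, and 12.924 against 9.358 to 9.709 on the other. In MT tumors, Flcn read 8.505 in MT4 and 7.818 to 7.93 in the others, and the second Trp53 probe set read 8.18 in MT4 and 9.127 to 9.295 in the others. Polr2a read 7.872 in MT4 and 9.984 to 10.138 in the others, and BC018473 read 10.302 in MT4 and 4.134 to 4.375 in the others. Among data outside the comparison, the poly-A control probe sets averaged 10.3826 in MT1, 10.4992 in MT2 and 10.5607 in MT3, against 3.9846 to 4.2288 in the other 9 tumors.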

How the results depend on the processing

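The 2 called probe sets of Trp53 became 0 in a fit to the 8 tumors alone, 0 with the replicate block, 13 with the poly-A block, 44 with array weights, 1 with 1 probe set per gene, 5 at an adjusted p under 0.1, 46 by SAM at 10%, and 0 and 0 by the methods' t-test at 5% and 10%. Leaving out each tumor in turn gave 2 to 235 calls, the most without MT4 (235) and 4 without KO1. Trp53 kept its differences of 2.44 and 2.27 but missed the threshold in the fit to 8 tumors (adjusted p = 0.168 by limma) and with the replicate block (0.0768). With the poly-A block they were 1.69 and 1.51. Of all 22626 probe sets, 1097 were without overlap. Without dim probe sets there were 620 of 12197, and with 1 probe set per gene 478 of 12399. These counts rest on fewer probe sets and are not losses from the 1097. With a tumor left out there were 1406 to 3198, 3198 without MT4, and leaving out a tumor can only add to the count. The split of the 1097 into 651 above and 446 below was 600 and 530 after cyclic loess and 706 and 416 after centering. The replicate numbers were not taken as pairs, since same-numbered tumors correlated at 0.0247, 0.154, 0.335 and 0.165. Ccng1 turned to 0.33 with the poly-A block on the probe set at -0.45, and Cdkn1a at -0.02 turned to 0.0057 after quantile normalization and ran from -0.28 to 0.13 with a tumor left out. The poly-A block also turned Polr2a from 1.18 to -0.47, Sox10 from 1.06 to -0.32, Ddx5 from -0.88 to 0.20, Mcl1 from -0.90 to 0.47 and Uty from -1.60 to 1.23, and BC018473, at 1.52, ran from -0.0056 without MT4 to 2.05. Of 846 recomputed values of 46 probe sets other than those of Trp53, none of which passed and so none of which could lose a call, 784 kept direction and side of the threshold, 49 came to pass and 13 turned. The causes were not tested.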
